A study of Mus musculus with 8 samples.

Results

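The BCL-2 family is described here by the mRNA of 10 of its members in splenic CD4+ T cells of mice. The rows were taken by gene symbol alone, for members chosen with earlier results of these data known. The members were the anti-apoptotic genes Bcl2, Bcl2l1 and Mcl1, the BH3-only genes Bcl2l11, Bid, Bbc3, Bad and Pmaip1, and the effectors Bax and Bak1. All 10 symbols were found among the 27179 genes of the deposited table. All 10 also passed the filter for testing, a mean of at least 0.5 RPKM (reads of a gene scaled to its transcript length and to library size) over the 8 libraries, as did 12605 genes in all.

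The data were 8 RNA sequencing libraries, 2 for each of 4 groups. All came from mice of the strain C.Cg-Foxp3tm2Tch/J, aged 8 weeks, which carry a reporter allele at Foxp3 (Foxp3tm2Tch), the gene of the factor that defines regulatory T cells. Control offspring came from untreated parents, and Cd offspring from parents given CdCl2 at 10 ppm in their drinking water around mating and during gestation, so that exposure of the offspring was prenatal. CD4+ T cells of each kind of offspring were either unstimulated (0 hours) or stimulated in culture for 16 hours with antibody-coated beads. The antibodies were to CD3 and CD28, and engage the T cell receptor and a costimulatory receptor. The design thus asks how the family responds to stimulation, whether prenatal Cd changes its level, and whether prenatal Cd changes its response. No group was kept in culture for 16 hours without beads. Effects of stimulation and of time in culture therefore cannot be told apart, and a response to stimulation here covers both. The 2 libraries of a group carry the numbers 6 and 7, and the study states that each litter was an independent exposure. Since the labels do not say what the numbers mark, nor the sex of the mice, p-values here measure the spread between these libraries, which may in part be technical.

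The family decides whether the mitochondrial pathway of apoptosis starts. The effectors BAX and BAK permeabilize the outer mitochondrial membrane and release cytochrome c, the anti-apoptotic proteins BCL-2, BCL-XL (from Bcl2l1) and MCL-1 hold the effectors and their activators in check, and the BH3-only proteins neutralize the anti-apoptotic ones or activate the effectors. In T cells, BCL-2 is known for the survival of resting cells under interleukin 7, BCL-XL for survival after CD28 costimulation, MCL-1 for survival at most stages, and BIM (from Bcl2l11) for the death of self-reactive and activated cells. The reads were counted per gene. Bcl2l1, Bcl2l11 and Mcl1 each give rise to splice forms that differ in activity, and these cannot be separated here. The values are mRNA levels relative to the reads of each library, so a rise or fall here is not shown to be one per cell. The total RNA per cell is not known here, and in bulk samples fewer cells of a type and less RNA per cell cannot be told apart.

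Promoter sequences of the members are given at annotated starts. Which starts these T cells use was not measured. RefSeq (GRCm38.p6, the build mm10) had windows from 250 bases before to 50 bases after a transcript start for 9 of the 10 members, 15 windows in all. The 250 bases before the start are printed for the 4 members called in stimulated control cells, and for Bcl2l11 as an example of a window with a forkhead motif, which a Bbc3 window not printed also holds, at 1 start for each gene. Sequences run 5′ to 3′ on the strand of the gene, and capitals mark motif matches.
Bcl2 (chr1:106714291-106714540, minus strand): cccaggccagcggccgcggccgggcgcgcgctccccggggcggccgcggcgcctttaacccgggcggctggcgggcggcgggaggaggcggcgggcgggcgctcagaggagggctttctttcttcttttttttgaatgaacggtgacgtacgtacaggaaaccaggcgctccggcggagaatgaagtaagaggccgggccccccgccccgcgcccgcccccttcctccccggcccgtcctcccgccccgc
Bcl2l1 (chr2:152831729-152831978, minus strand): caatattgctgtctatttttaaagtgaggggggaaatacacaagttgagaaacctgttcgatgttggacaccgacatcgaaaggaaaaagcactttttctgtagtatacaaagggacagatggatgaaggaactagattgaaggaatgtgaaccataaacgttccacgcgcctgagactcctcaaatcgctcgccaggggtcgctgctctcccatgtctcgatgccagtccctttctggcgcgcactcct
Bcl2l11 (chr2:128125788-128126037, plus strand): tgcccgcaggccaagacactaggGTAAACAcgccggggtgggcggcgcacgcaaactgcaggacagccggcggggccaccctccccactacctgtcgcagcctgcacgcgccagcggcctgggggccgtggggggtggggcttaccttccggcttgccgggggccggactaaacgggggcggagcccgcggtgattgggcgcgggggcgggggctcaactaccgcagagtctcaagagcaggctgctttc
Bid (chr6:120916825-120917074, minus strand): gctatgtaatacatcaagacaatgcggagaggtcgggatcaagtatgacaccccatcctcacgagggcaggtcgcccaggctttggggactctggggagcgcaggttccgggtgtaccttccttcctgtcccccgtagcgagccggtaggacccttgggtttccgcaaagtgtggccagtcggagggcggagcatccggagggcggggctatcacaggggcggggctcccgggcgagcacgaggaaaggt
Bax (chr7:45466899-45467148, minus strand): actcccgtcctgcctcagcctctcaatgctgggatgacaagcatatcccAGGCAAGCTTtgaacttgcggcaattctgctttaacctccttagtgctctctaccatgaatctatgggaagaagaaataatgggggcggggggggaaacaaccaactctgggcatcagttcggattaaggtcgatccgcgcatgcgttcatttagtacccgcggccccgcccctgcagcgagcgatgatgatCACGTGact
The Bcl2l1 window printed lies before the outermost of the 3 starts that had a window. It is still inside the coordinates given for the gene further on, which end at 152833803. The Bid window printed also lies mostly inside the coordinates of its gene, which end at 120917062. The 250 bases before the other 2 Bcl2l1 starts lie within exons of the GENCODE M21 annotation. Of the Bid bases printed, 29 are exonic there, and of the other windows printed none. The 50 bases after the printed Bcl2 start were not found in a GENCODE M21 transcript of Bcl2, unlike those of the other windows printed. The motifs were searched on both strands in the whole windows, for factors among the regulators described further on. These were the NF-kB motif, the STAT motif TTCNNNGAA, the forkhead motif GTAAACA, the E-box CACGTG and the p53 half-site. Of all 32851 RefSeq windows, 8.46% held the NF-kB motif, 8.30% the STAT motif, 3.65% the forkhead motif, 7.15% the E-box and 8.36% the p53 half-site. The Bax window held the E-box 9 bases before and 35 bases after the start, and a p53 half-site 201 bases before it. The Bcl2l11 window held the forkhead motif 227 bases before the start, and the middle Bcl2l1 window the NF-kB motif 242 bases before its start. Of the other members with a window, only Bbc3 held any, with 2 overlapping NF-kB matches, 1 forkhead match and 1 E-box over its 3 windows. The Bcl2 window had a GC content of 76.0% and 44 CpG dinucleotides, and the Bcl2l1 window printed had 52.3% and 22, against medians of 52.7% and 7 over all windows. These matches are letters in a window and not sites of binding.

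Each library held 15542732 to 25486791 reads on genes. The least covered members were Pmaip1, with 70 to 128 reads in a library, and Bad, with 85 to 135, and the others had 233 or more. The 6 CD4 T cell markers (Cd3d, Cd3e, Cd3g, Cd4, Cd5 and Lck) summed to 2051 to 2096 RPKM in unstimulated control cells and 1297 to 1323 RPKM in stimulated ones. The defining markers Ms4a1 of B cells, S100a8 and S100a9 of myeloid cells and Hba-a1 and Hba-a2 of erythroid cells were at 0 in all 8 libraries. Other genes of these lists were not: Cd79a of the B cell list was at 2.87 to 4.73 RPKM, Cd68 and Itgam of the myeloid list at 2.74 to 5.77 and 0.251 to 1.85 RPKM, and Cd8b1 of the CD8 T cell list at 9.40 to 11.7 RPKM, while Cd8a did not exceed 0.16 RPKM. Foxp3, which marks regulatory T cells, was between 4.48 and 7.69 RPKM, and the study describes the cells as sorted CD25- conventional T cells. The 3 NK cell markers summed to 16.8 to 20.2 RPKM in unstimulated and 4.92 to 5.57 RPKM in stimulated cells of either exposure. The activation genes Cd69, Il2ra, Il2, Myc, Irf4 and Tfrc summed to 161 to 214 RPKM in unstimulated and 1223 to 1338 RPKM in stimulated cells. The part of these shifts in the results for the family was not tested.

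With stimulation, the anti-apoptotic members changed in opposite directions. Bcl2l1 rose from a minor to a leading transcript, and in RPKM Bcl2 fell to 0.46 times its level in control and 0.53 times in Cd cells. Mcl1, the most abundant member before stimulation, fell by less than 2-fold. Bid and Bax more than doubled and Bcl2l11 rose by about 1.5-fold, while no change was called for Bbc3, Bad, Pmaip1 and Bak1. A response was called where it exceeded 2-fold with an adjusted p under 0.01, the thresholds of the study, from limma with Benjamini-Hochberg adjustment over all 12605 genes. Fold changes are on the scale of log2(RPKM + 0.1).

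Bcl2l1 (chr2:152758732-152833803) encodes BCL-XL. In control offspring its level was 7.74 and 6.88 RPKM in the 2 unstimulated libraries and 126 and 121 RPKM in the stimulated ones. In Cd offspring it was 7.21 and 6.49 RPKM before and 121 and 121 RPKM after stimulation. The 4 stimulated libraries thus lay within a narrow range far above the 4 unstimulated ones. In control cells the log2 fold change was 4.06 ± 0.075 (SE, n = 2 against 2 libraries, limma adjusted p = 1.01e-07), a 16.6-fold rise, and Bcl2l1 was 43rd of the 12605 genes tested by increase. In Cd cells it was 4.13 ± 0.075 (limma adjusted p = 1.17e-07), a 17.5-fold rise.

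Bcl2 (chr1:106538176-106714290), the founding anti-apoptotic member, moved the other way. In control offspring it stood at 37.0 and 36.6 RPKM without and 17.4 and 16.3 RPKM with stimulation. In Cd offspring it stood at 28.5 and 29.6 RPKM in unstimulated and 15.6 and 15.4 RPKM in stimulated cells. Every stimulated library was below every unstimulated one. The fall was 1.13 ± 0.055 on the log2 scale in control cells (limma adjusted p = 2.19e-06) and 0.91 ± 0.055 in Cd cells (limma adjusted p = 6.17e-06), which is under 2-fold. An antisense gene, D630008O14Rik, shares 558 of the 9157 exonic bases of Bcl2, and since the strand setting of the counting is not stated, reads from the 2 genes cannot be told apart there.

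Mcl1 (chr3:95656944-95663179) encodes a short-lived protein and had the highest mean level of the family in 3 of the 4 groups. In control offspring it measured 174 and 154 RPKM before and 127 and 122 RPKM after stimulation. In Cd offspring it measured 157 and 167 RPKM before and 120 and 120 RPKM after. The groups did not overlap, and the log2 fold change was -0.39 ± 0.066 in control (limma adjusted p = 0.00129) and -0.43 ± 0.066 in Cd cells (limma adjusted p = 0.00079). The decrease passed the test but stayed well under 2-fold.

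**Figure D1:**
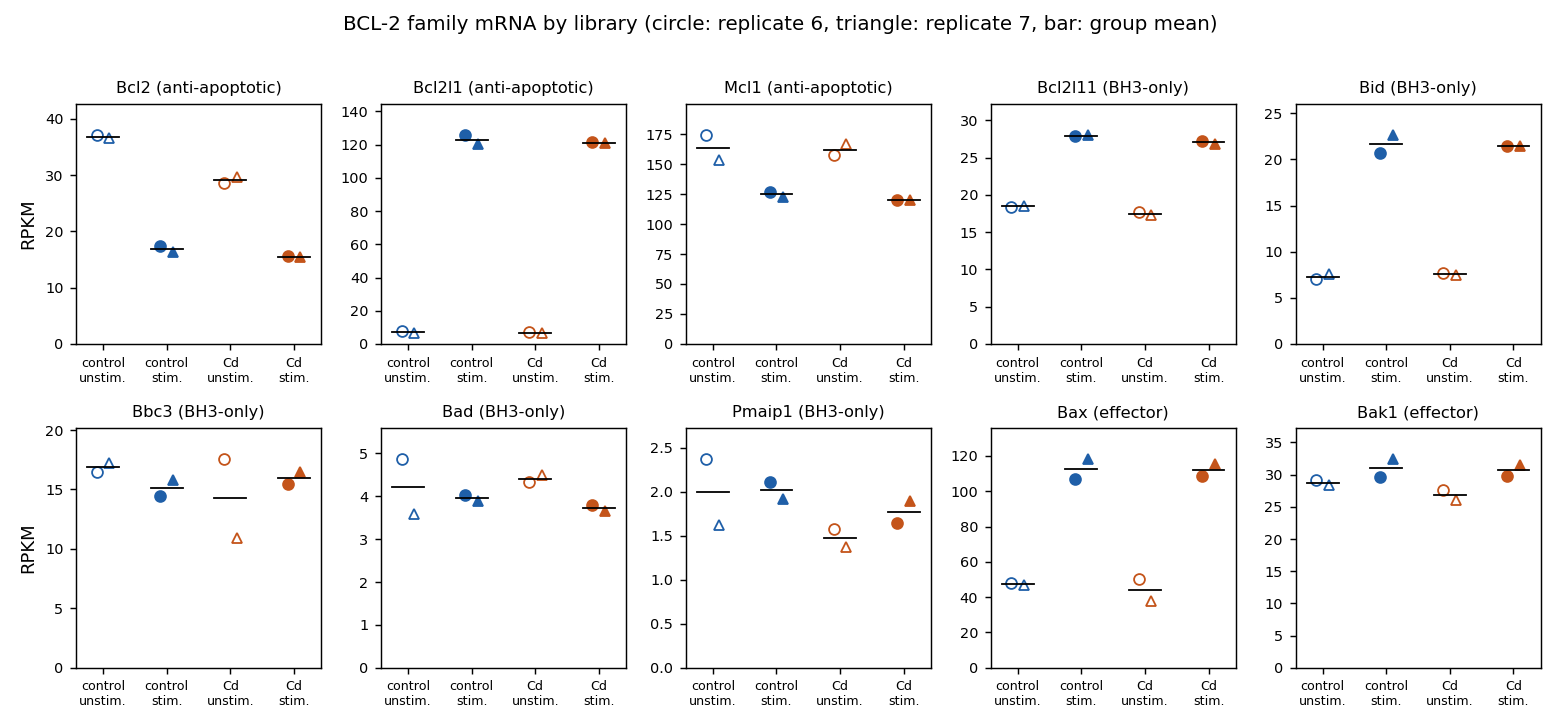
mRNA level in RPKM (y axis, from 0) of the 10 members in the 4 groups (x axis), with circles for replicate 6, triangles for replicate 7, open symbols for unstimulated cells, filled symbols for stimulated cells and bars for group means. Bcl2l1, Bid, Bax and Bcl2l11 are higher and Bcl2 and Mcl1 lower in all stimulated libraries, and the unstimulated Cd libraries of Bcl2 lie below the control ones.

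Because Bcl2l1 rose while Bcl2 and Mcl1 fell, the make-up of the 3 anti-apoptotic mRNAs among the members shifted. Bcl2l1 made up 3.20% to 3.73% of their summed RPKM in the 4 unstimulated libraries and 46.5% to 47.3% in the 4 stimulated ones. Bcl2 went from 16.9% and 18.6% in unstimulated control and 14.8% and 14.6% in unstimulated Cd libraries to 6.0% to 6.4% in stimulated libraries. Mcl1 went from 77.9% to 82.2% down to 46.6% to 47.2%. The sum itself was 193 to 219 RPKM in unstimulated and 257 to 270 RPKM in stimulated libraries, so the total of these 3 changed less than its composition. That total leaves out Bcl2l2 and the Bcl2a1 copies, described further on, of which those called rose with stimulation. Bcl2l1 mRNA per Bcl2 mRNA, both per length, was 0.188 to 0.253 before and 7.21 to 7.84 after stimulation. These shares are descriptions of RPKM and were not tested.

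**Figure D2:**
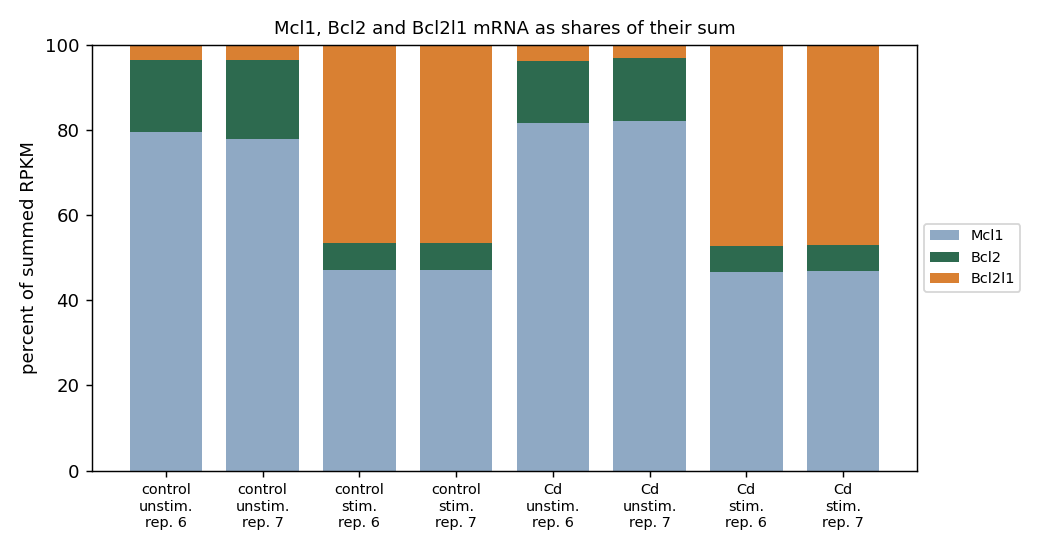
Stacked bars of the share of Mcl1, Bcl2 and Bcl2l1 in their summed RPKM (y axis, percent) for each of the 8 libraries (x axis). Bcl2l1 takes 3.20% to 3.73% of the sum in unstimulated and 46.5% to 47.3% in stimulated libraries, in control and Cd offspring.

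Among the BH3-only genes, Bid and Bcl2l11 rose and the remaining 3 did not pass the test. Bid (chr6:120893119-120917062) encodes the protein that caspase-8 cleaves to link death receptors to mitochondria. Its level was 7.03 and 7.56 RPKM in unstimulated and 20.7 and 22.6 RPKM in stimulated control cells, and 7.65 and 7.52 RPKM in unstimulated and 21.5 and 21.5 RPKM in stimulated Cd cells. The 4 stimulated libraries were all above the 4 unstimulated ones, by 1.56 ± 0.070 on the log2 scale in control (limma adjusted p = 1.59e-06) and 1.49 ± 0.070 in Cd offspring (limma adjusted p = 2.01e-06). Bid shares 628 of its 3550 exonic bases with Bcl2l13 on the opposite strand, which had a log2 fold change of 0.27 in control cells (limma adjusted p = 0.0101).

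Bcl2l11 (chr2:128126038-128162547) encodes BIM, the BH3-only protein with the widest known role in lymphocyte death. It measured 18.4 and 18.5 RPKM in unstimulated and 27.9 and 28.0 RPKM in stimulated control cells. In Cd offspring the values were 17.7 and 17.3 RPKM before and 27.2 and 26.9 RPKM after stimulation. Replicates lay close together and the groups far apart, with log2 fold changes of 0.60 ± 0.048 (limma adjusted p = 2.44e-05) in control and 0.63 ± 0.048 (limma adjusted p = 1.96e-05) in Cd cells, both under 2-fold.

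Bbc3 (chr7:16308398-16318334) encodes PUMA, a p53 target. It measured 16.5 and 17.3 RPKM before and 14.5 and 15.8 RPKM after stimulation in control cells, and 17.5 and 10.9 RPKM before and 15.4 and 16.5 RPKM after in Cd cells. The unstimulated Cd libraries differed from each other more than any 2 group means did, and the log2 fold changes of -0.16 ± 0.19 and 0.20 ± 0.19 did not pass (limma adjusted p = 0.491 and 0.373). In Cd offspring the value hung on 1 library. It was -0.14 without unstimulated Cd replicate 7, and 0.54 with a limma adjusted p of 0.0018 without unstimulated Cd replicate 6.

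Bad and Pmaip1 were the lowest members. Bad (chr19:6941861-6951905), whose protein is held inactive by survival kinases, measured 4.86 and 3.59 RPKM in unstimulated control, 4.03 and 3.90 RPKM in stimulated control, 4.33 and 4.49 RPKM in unstimulated Cd and 3.79 and 3.65 RPKM in stimulated Cd cells. Pmaip1 (chr18:66458604-66465558) encodes NOXA, which binds MCL-1. It measured 2.37 and 1.62 RPKM in unstimulated control, 2.11 and 1.92 RPKM in stimulated control, 1.57 and 1.38 RPKM in unstimulated Cd and 1.65 and 1.89 RPKM in stimulated Cd cells. Neither gene passed in either kind of offspring. The 95% interval of the log2 fold change in control cells was -0.41 to 0.26 for Bad and -0.44 to 0.51 for Pmaip1. Changes within these bounds remain compatible with the data at this depth and replication.

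The effectors parted. Bax (chr7:45461695-45466903) measured 48.0 and 47.1 RPKM in unstimulated and 107 and 118 RPKM in stimulated control cells, and 50.01 and 37.6 RPKM in unstimulated and 109 and 116 RPKM in stimulated Cd cells. All stimulated libraries were above all unstimulated ones. The rise was 1.24 ± 0.12 on the log2 scale in control (limma adjusted p = 7.29e-05) and 1.37 ± 0.12 in Cd cells (limma adjusted p = 4.42e-05). Bax is a short gene (869 counted bases) and shares 192 of its 1576 exonic bases with Gm45808 on the same strand.

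Bak1 (chr17:27019812-27028627) was not called in either kind of offspring. It measured 29.2 and 28.3 RPKM before and 29.7 and 32.4 RPKM after stimulation in control cells, and 27.7 and 26.0 RPKM before and 29.8 and 31.5 RPKM after in Cd cells. The log2 fold change was 0.11 ± 0.064 in control (95% interval -0.04 to 0.26, limma adjusted p = 0.168) and 0.19 ± 0.064 in Cd cells (0.04 to 0.34, limma adjusted p = 0.0306, above the threshold of 0.01). Bax mRNA per Bak1 mRNA, both per length, was 1.44 to 1.81 in unstimulated and 3.60 to 3.67 in stimulated libraries. Bak1 overlaps Ggnbp1 on the opposite strand over 614 of its 2407 exonic bases, and Bad overlaps Gpr137 on the opposite strand over 524 of 2558.

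Counted over the family, 3 of the 10 members were called higher and 1 lower in control offspring, against 11.5% and 7.17% of all genes tested. Without the fold threshold these counts were 4 and 2, against 29.9% and 21.8%. In Cd offspring 3 were called higher and 0 lower, against 11.4% and 7.24%, and without the fold threshold 4 and 2, against 30.2% and 22.3%. Bcl2 made the difference between the counts of lower members, since its fall in Cd cells passed the test but not the 2-fold limit. Without the fold threshold, the share of the family that changed was close to that of all genes. Libraries that did not overlap were common too. Both stimulated control libraries were above both unstimulated ones for 5 members and below them for 3, against 46.0% and 37.2% of all genes. In Cd cells these counts were 6 and 3, against 44.7% and 38.4%. They include Bbc3 and Bak1 in control cells, which were not called. The median log2 fold change of the members was 0.073 in control and 0.22 in Cd cells, beside 0.070 and 0.050 over all genes.

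**Figure D3:**
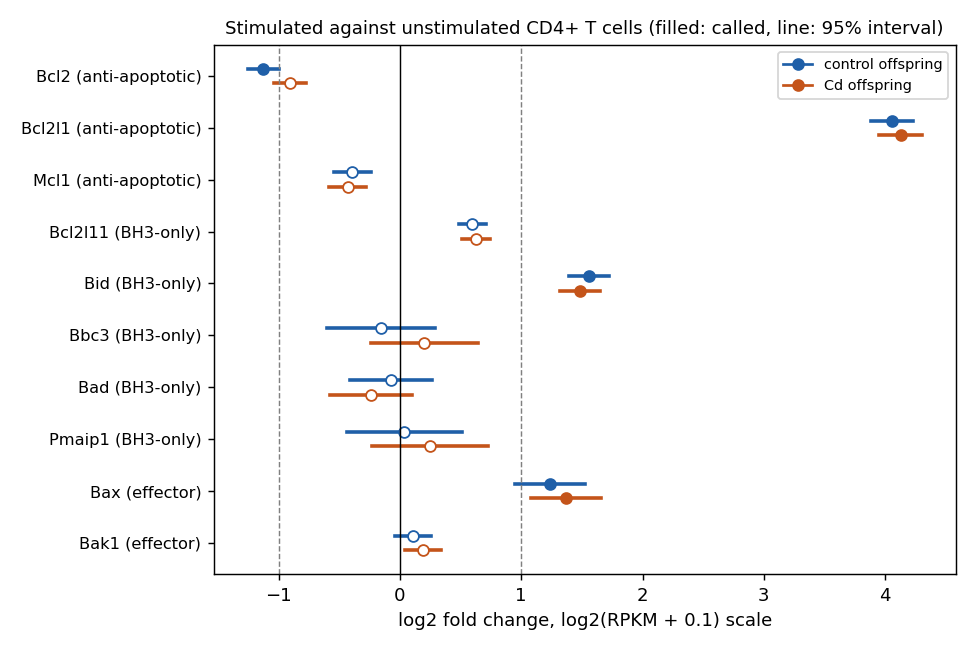
log2 fold change between stimulated and unstimulated cells (x axis, on the scale of log2(RPKM + 0.1)) for each member (y axis) in control (blue) and Cd (orange) offspring, with 95% limma intervals, filled points for called changes and dashed lines at 2-fold. The control and Cd points of a gene lie side by side, with Bcl2l1 near 4, Bid and Bax above 1 and Bcl2 near -1.

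The order of the members by level changed accordingly. In unstimulated control cells the means ran from Mcl1 at 164 ± 14 RPKM (SD, n = 2) through Bax at 47.5 ± 0.63, Bcl2 at 36.8 ± 0.30, Bak1 at 28.7 ± 0.60, Bcl2l11 at 18.4 ± 0.062 and Bbc3 at 16.9 ± 0.57 RPKM. Bcl2l1 at 7.31 ± 0.61 and Bid at 7.29 ± 0.38 RPKM followed, with overlapping libraries, and then Bad at 4.23 ± 0.90 and Pmaip1 at 1.99 ± 0.53 RPKM. In stimulated control cells Mcl1 at 125 ± 3.3 and Bcl2l1 at 123 ± 3.5 RPKM led with overlapping libraries, followed by Bax at 112 ± 8.0 RPKM. Bak1 at 31.0 ± 1.9, Bcl2l11 at 27.9 ± 0.016 and Bid at 21.6 ± 1.3 RPKM then stood above Bcl2, which had dropped to 16.8 ± 0.80 RPKM, and Bbc3 at 15.1 ± 0.95 RPKM. In unstimulated Cd cells Bid at 7.59 ± 0.094 stood above Bcl2l1 at 6.85 ± 0.51 RPKM, and the libraries of Bcl2l11 and Bbc3 overlapped. In stimulated Cd cells Bcl2l1 at 121 ± 0.50 stood above Mcl1 at 120 ± 0.46 RPKM, and Bbc3 at 16.0 ± 0.76 and Bcl2 at 15.5 ± 0.11 RPKM overlapped. These means compare genes per length.

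Prenatal Cd was associated with a called change in 1 member. Bcl2 was lower in unstimulated T cells of Cd offspring, at 28.5 and 29.6 RPKM, than in those of control offspring, at 37.0 and 36.6 RPKM. Both Cd libraries lay below both control libraries and the replicates of each group lay close together. The change was -0.34 ± 0.055 on the log2 scale (95% interval -0.47 to -0.21, limma adjusted p = 0.0432), that is a level of 0.79 times the control. This call was made for 0.896% of all genes tested, at an adjusted p under 0.05. It stood close to the threshold, and it was lost in each of the 8 fits that left out 1 library and under 6 of 10 other settings. The log2 fold change lay between -0.37 and -0.31 in all of them, but many of these fits could not move it. Leaving out a stimulated library, no filter, no trend, the libraries of the comparison alone and the replicate block kept it at -0.34 by construction. The control libraries here also enter the stimulation comparison of control cells.

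Other values moved with exposure in the same libraries, and their part in the Bcl2 result was not tested. The 6 CD4 T cell markers summed to 1948 and 1976 RPKM in Cd against 2051 to 2096 RPKM in control unstimulated cells. Lck was higher in both Cd libraries, at 400 and 377 against 373 and 373 RPKM, and the other genes of that list were lower. The 6 activation genes summed to 161 to 179 against 190 to 214 RPKM. Most of that difference lay in Cd69, at 116 and 106 RPKM in Cd against 156 and 136 RPKM in control cells. Il2ra and Tfrc were slightly higher in both Cd libraries, and the libraries of Myc and Irf4 overlapped. Among the activation genes, Il2, the T cell growth factor, was called lower in unstimulated Cd cells, at 0.271 and 0.308 RPKM against 0.703 and 0.517 RPKM (log2 fold change -0.86 ± 0.14, limma adjusted p = 0.0409). This call rests on very few reads, with 5 in the lowest library, and on levels not far above the added 0.1 RPKM. Its error was estimated over all 4 groups, including stimulated cells with far more Il2, and may understate the spread at so few reads. Whether the Il2 call holds under other settings was not examined. The 6 myeloid markers, of which S100a8 and S100a9 were at 0, summed to 7.57 to 7.80 in Cd against 6.23 to 6.61 RPKM in control cells, and the 3 NK cell markers to 16.8 to 19.5 against 19.7 to 20.2 RPKM. Cd68 made up most of the myeloid sum, at 5.77 and 5.70 in Cd against 4.25 and 4.63 RPKM in control cells. Itgam went the other way, at 1.66 and 1.56 against 1.85 and 1.74 RPKM, and Lyz2 and Csf1r did not exceed 0.319 RPKM.

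No other member was called in unstimulated cells. The largest changes not called were those of Pmaip1, at -0.39 ± 0.20 on the log2 scale (95% interval -0.87 to 0.08), and Bbc3, at -0.28 ± 0.19 (-0.72 to 0.16). The Pmaip1 estimate exceeded in size that of Bcl2, at -0.34 ± 0.055, but had a larger error. Bbc3 depended on 1 library there too. Without unstimulated Cd replicate 6 its change was -0.62 and was called (limma adjusted p = 0.0422), and without unstimulated Cd replicate 7 it was 0.06. That replicate 7 was also the lowest of the unstimulated libraries for Bax, at 37.6 RPKM. Bcl2l1 (-0.09, 95% interval -0.27 to 0.08) and Mcl1 (-0.01, -0.17 to 0.14) had overlapping libraries. Both Cd libraries were below both control libraries for 4 of the 10 members, namely Bcl2, Bcl2l11, Pmaip1 and Bak1, against 20.0% of all genes, and above them for 0, against 22.3%. The median log2 fold change was -0.10 over the members and 0.01 over all genes.

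In stimulated cells, no member was called in the comparison of Cd with control offspring. Of all genes tested none passed (0% called by limma, and 0 genes by limma voom), 414 genes had an unadjusted p under 0.05, and none of the members did. Bcl2 was again lower in both Cd libraries, by 0.12 on the log2 scale (95% interval -0.25 to 0.01, limma adjusted p = 1). The intervals of Bcl2l1 (-0.20 to 0.15), Mcl1 (-0.21 to 0.10), Bid (-0.18 to 0.15) and Bcl2l11 (-0.16 to 0.06) bound the change of these members on the log2 scale. Those of Bax (-0.29 to 0.28), Bbc3 (-0.36 to 0.52) and Pmaip1 (-0.65 to 0.30) were wider. Both Cd libraries were below both control libraries for 5 of the 10 members, against 20.6% of all genes, and above them for 0, against 16.0%. The 5 were Bcl2, Mcl1, Bcl2l11, Pmaip1 and Bad, and their changes lay between -0.18 and -0.05 on the log2 scale.

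**Figure D4:**
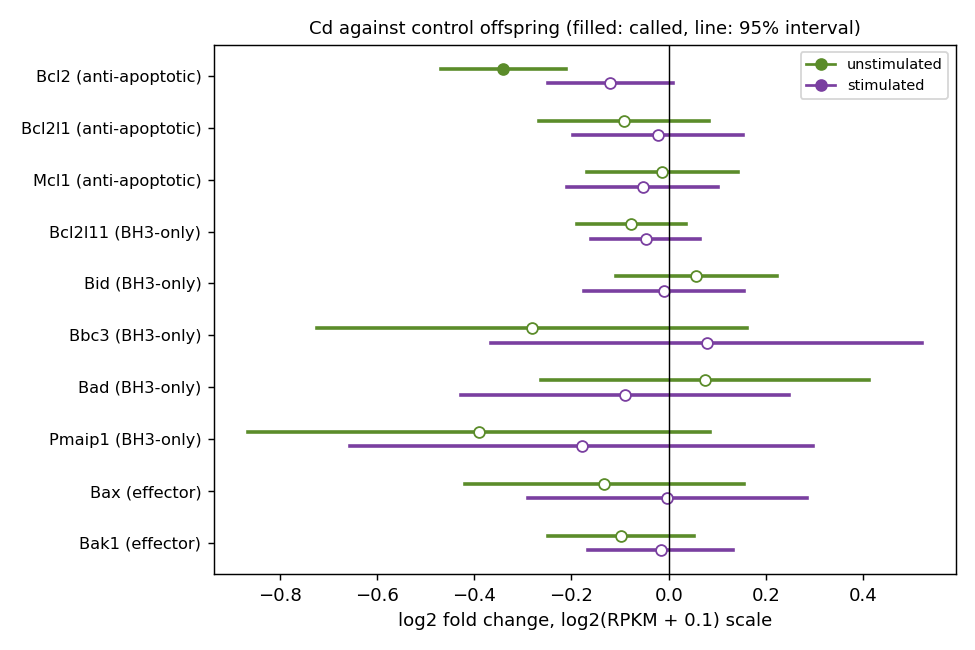
log2 fold change between Cd and control offspring (x axis, on the scale of log2(RPKM + 0.1)) for each member (y axis) in unstimulated (green) and stimulated (purple) cells, with 95% limma intervals and filled points for called changes. Only Bcl2 in unstimulated cells is called, at -0.34, and the intervals of Bbc3, Pmaip1 and Bad are the widest.

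The response to stimulation was also compared directly between Cd and control offspring. No member was called at an adjusted p under 0.05, against 0.357% of all genes (45 genes by limma). The difference was largest in relation to its error for Bcl2, at 0.22 ± 0.078 (95% interval 0.04 to 0.40, limma adjusted p = 0.39), where the fall was smaller in Cd cells, which had started lower. It was the only member with an unadjusted p under 0.05, as 1332 of all genes had. The loss of the 2-fold call of Bcl2 in Cd cells is therefore not shown to be a difference between the exposures. For Bcl2l1 the difference was 0.07 (95% interval -0.18 to 0.32), for Bid -0.07 (-0.30 to 0.17), for Bax 0.13 (-0.28 to 0.53) and for Bcl2l11 0.03 (-0.13 to 0.19).

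The rest of the apoptosis pathway was described with 6 lists, 64 genes in the table, of which 56 were tested. In control cells 13 of these rose and 2 fell by the call of more than 2-fold, beside 11.5% and 7.17% of all genes tested. In Cd cells 13 rose and 2 fell, beside 11.4% and 7.24%. The counts of single lists are for control cells and stand beside the same 11.5% and 7.17%. In neither Cd comparison, nor in the difference between responses, was any of the 56 called.

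The other BCL-2 family genes held 14 entries, of which 8 were tested and 4 called higher in control cells. The remaining members of the list, among them Bok, Hrk and Bcl2l10, were largely below the filter. Bcl2a1b and Bcl2a1d, copies of the gene for the anti-apoptotic protein A1, had the highest levels of the 4. Bcl2a1b measured 12.8 and 12.8 RPKM in unstimulated and 108 and 118 RPKM in stimulated control cells (log2 fold change 3.12 ± 0.097, limma adjusted p = 4.46e-07). Bcl2a1d measured 3.77 and 3.24 RPKM before and 24.8 and 25.4 RPKM after (2.81 ± 0.090, limma adjusted p = 4.66e-07). The Bcl2a1 copies are nearly identical in sequence, and how reads were divided among them is uncertain. The other 2 called, Bcl2a1a and Bcl2l2, averaged 2.84 and 1.74 RPKM over the libraries. Bcl2a1b reached a level close to that of Bcl2l1 and Mcl1 in stimulated cells, per length.

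Of the 6 tested genes for inhibitors of apoptosis and their antagonists, 1 was called higher, Htra2, a mitochondrial protease released with cytochrome c (1.02 ± 0.14, limma adjusted p = 0.000387), close to the 2-fold limit. Of the 8 death receptor genes, 1 was called higher, Tnfrsf10b, the mouse TRAIL receptor (1.34 ± 0.090, limma adjusted p = 9.75e-06). Of the 4 mitochondrial partners, 1 was called higher, Vdac1, a channel of the outer membrane (1.26 ± 0.063, limma adjusted p = 2.33e-06). In each of these 3 lists 0 genes were called lower.

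Of 20 tested regulators of the family, 5 were called higher and 2 lower in control cells. The 3 with the largest change were Myc, Rel and Nfkb1. Myc, which drives growth and also sensitizes cells to apoptosis, went from 35.9 and 32.3 RPKM to 198 and 187 RPKM (log2 fold change 2.49 ± 0.11, limma adjusted p = 1.44e-06). Rel and Nfkb1, subunits of NF-kB, a known activator of Bcl2l1 and Bcl2a1 transcription, had log2 fold changes of 2.17 ± 0.053 and 1.99 ± 0.043 (limma adjusted p = 2.49e-07 and 1.87e-07). The 2 called lower, named after their values were seen, were Foxo1, a forkhead factor of resting T cells, at 136 and 136 RPKM before and 43.1 and 44.1 RPKM after stimulation, and Ddit3, the stress factor CHOP, at 30.5 and 35.6 RPKM before and 14.5 and 13.6 RPKM after. Over the 6 lists the median log2 fold change in control cells ran from -0.02 (death receptor genes) to 1.07 (other BCL-2 family genes), beside 0.070 over all genes.

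**Figure D5:**
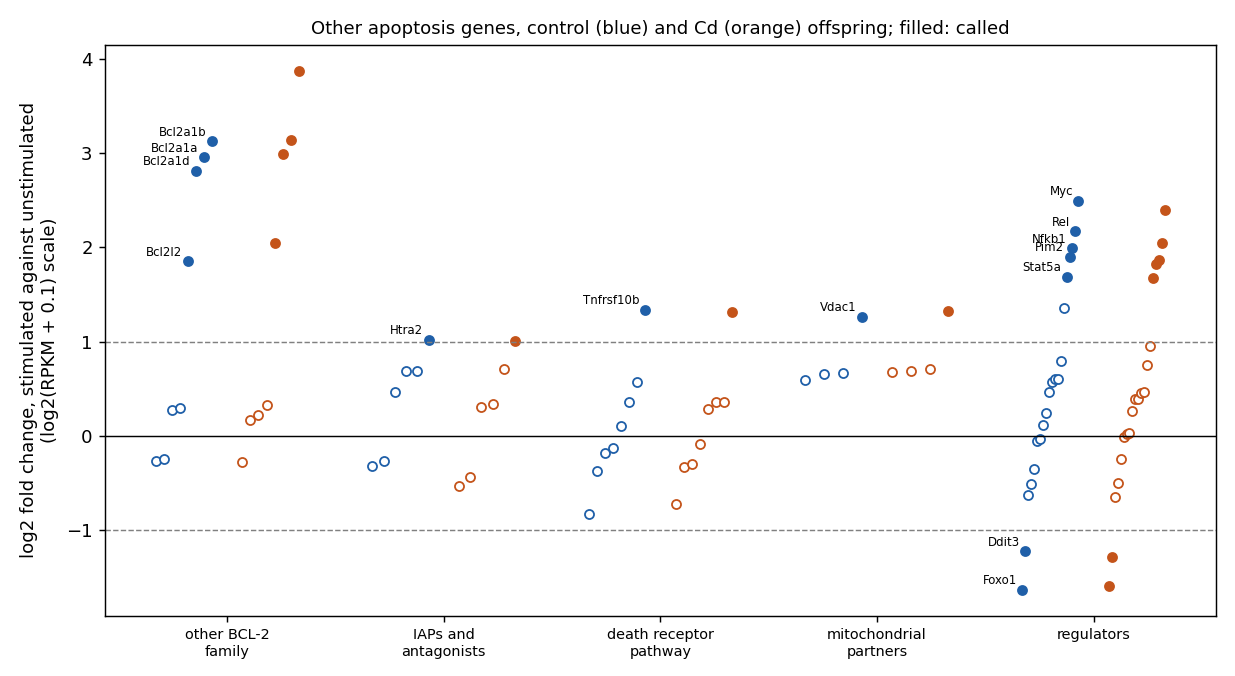
log2 fold change with stimulation (y axis, on the scale of log2(RPKM + 0.1)) of each tested gene in the other apoptosis lists except the caspase and apoptosome genes (x axis), in control (blue) and Cd (orange) offspring, with filled points for called changes, dashed lines at 2-fold and names beside the genes called in control cells. Called genes are the Bcl2a1 copies, Bcl2l2, Htra2, Tnfrsf10b and Vdac1, with 5 higher and 2 lower among the regulators. In Cd offspring Bcl2a1b lies at 3.14 and Myc at 2.39.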

How the data were processed

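The 8 RNA sequencing libraries of CD4+ T cells were placed in 4 groups of 2 by their sample labels. Alignment to mm10 was done by the authors with subread, and counting on RefSeq transcripts with featureCounts (versions, strand setting and handling of multi-mapped reads are not given in the sources used here). The deposited values are on a log2 scale, log2(RPKM + 1) + 0.0001, as read from the values, and were brought back to RPKM. Whole reads, transcript lengths and totals were recovered for 17794 of 17794 genes above 0 in at least 2 libraries (reads whole within 0.002). The totals, 15542732 to 25486791 reads, set the precision.

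Genes averaging 0.5 RPKM or more were tested with limma 3.58.1 under R 4.3.3. The model of log2(RPKM + 0.1) had a mean for each of the 4 groups and 4 residual degrees of freedom, and variances were moderated by empirical Bayes with a trend. An exact permutation test of 2 against 2 libraries cannot go below p = 0.333. The pipeline was run on simulated counts with a fixed spread between libraries and no Cd effect. Such a run cannot measure how reliable the Cd calls of these data are. Results were recomputed with a pseudocount of 0.5 or 1, without a filter, with a filter at 1 RPKM, scaling by median of ratios, quantile normalization, no trend, the libraries of a comparison alone, a replicate block, limma voom on the recovered reads, an adjusted p under 0.05 at any fold for stimulation, and each library left out in turn.

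The members, the other lists and the motifs were chosen with earlier results of these data known. All members are named. Of each other list, up to 3 called genes with the largest change in control cells and a mean RPKM of at least 5 are named, and any list gene called in a Cd comparison. Promoter sequences and coordinates are from RefSeq (GRCm38.p6), exon overlaps from GENCODE M21. No promoter of Pmaip1 is shown. Results for some single genes of the lists are not reported here. Tables and plots were made with Python 3.11.15, pandas 2.3.3 and matplotlib 3.10.9.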

Additional observations from a re-analysis of the deposited data

How the results depend on the processing

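With stimulation of control cells 4 members were called under every alternative of scaling, filter, pseudocount, trend, block and left-out library, and 6 at an adjusted p under 0.05 with no fold threshold. In Cd cells the 3 calls became 7 at that threshold, and Bcl2 passed 2-fold after quantile normalization (-1.05). Of 190 values in each stimulation comparison, 184 in control and 188 in Cd cells kept direction and side of the threshold.

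The single call of Cd against control in unstimulated cells, Bcl2, became 0 calls with no filter, median-of-ratios scaling, quantile normalization, no trend, only the libraries of the comparison, and a replicate block by number (adjusted p = 0.097 for Bcl2). It was kept with pseudocounts of 0.5 and 1, a filter at 1 RPKM and limma voom (adjusted p = 0.00396). With 1 library left out the number of members called ranged from 0 to 1, the 1 being Bbc3 without unstimulated Cd replicate 6. Same-numbered libraries deviated together by correlations of only -0.11 to 0.064, so the numbers are not shown to pair the samples, and the block changed no other call of a member. Over all genes this comparison called 113, but 14 with no trend, 65 with no filter, 57 with only its own libraries, 211 by limma voom, 18 without unstimulated control replicate 6, 61 without stimulated Cd replicate 6 or 7 and 67 without unstimulated control replicate 7. The difference between responses called 45, but 4 with no trend, 28 with no filter, 25 with a replicate block within exposure, 111 by limma voom, and 2 to 60 with 1 library left out. Cd against control in stimulated cells called 0, but 9 with no filter, 2 with no trend, 2 without unstimulated control replicate 6 or 7 and 3 without stimulated control replicate 7.

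Directions that turned were all of values not called. With median-of-ratios scaling these were Pmaip1 in stimulated control cells (-0.036) and Bax (0.0091) and Bid (0.0018) for Cd in stimulated cells. With quantile normalization, which moved the median of all genes by -0.10 for stimulation of control cells, they were Pmaip1 (-0.043) and Bak1 (-0.050) in stimulated control cells and Mcl1 (0.027) for Cd in unstimulated cells. Leaving out 1 library turned the following, given as the lowest and highest log2 value. For stimulation they were Bad -0.29 to 0.14 and Pmaip1 -0.22 to 0.30 in control, and Bbc3 -0.14 to 0.54 in Cd cells. For Cd in unstimulated cells they were Bad -0.14 to 0.29, Bax -0.34 to 0.073, Bbc3 -0.62 to 0.057 and Mcl1 -0.10 to 0.076. For Cd in stimulated cells they were Bak1 -0.079 to 0.045, Bax -0.075 to 0.069, Bcl2l1 -0.051 to 0.0061 and Bid -0.074 to 0.053. For the difference between responses they were Bad -0.38 to 0.049, Bax -0.076 to 0.33, Bcl2l1 -0.014 to 0.15, Mcl1 -0.13 to 0.049 and Pmaip1 -0.050 to 0.47. The cause was not tested. A fit without 1 library leaves the other of its group alone, assumed to vary like the rest. Pmaip1 and Bad rest on the fewest reads, 70 to 128 and 85 to 135 in a library.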
